A study of Mus musculus with 28 samples.

Results

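The brush border of the small intestine is a carpet of microvilli, and 10 genes that build it were followed through every organoid condition of the study: Vil1, Espn, Pls1, Eps8, Myo1a, Ezr, Cdhr2, Cdhr5, Ush1c and Myo7b. They were taken by gene name. All 10 were present among the 29413 genes of the table for bone morphogenetic protein (BMP) ligands and among the 55416 genes of the table for transforming growth factor beta (Tgfb), and all 10 passed the filter on low values in both. The samples were small-intestinal organoids from wild-type C57BL/6 mice, which are crypt-derived epithelial cultures in matrigel, kept in ENR medium and measured by RNA-seq. In the BMP table, 4 samples had received recombinant Bmp2, 3 each recombinant Bmp3, Bmp4, Bmp5 or Bmp7, and 4 were left untreated as controls. A separate table compared 3 samples given recombinant Tgfb with 3 controls of its own, and every ligand was used at 500 ng/ml for 24 h. A further table held 1 sample of fresh and 1 of immortalised Pdgfra-positive mesenchymal cells from PdgfraH2BeGFP mice. The immortalised sample carried the HPV16 E6 gene and had been sorted. Age, sex and the number of animals behind the organoids were not given in the sources used here, and the organoids hold no villus and no mesenchyme of their own.

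A microvillus is a membrane finger around a bundle of parallel actin filaments. Villin (Vil1), espin (Espn) and plastin 1 (Pls1, also called fimbrin) cross-link the filaments, and Eps8 caps and bundles them at the tip. Myosin 1a (Myo1a) and ezrin (Ezr) tie the bundle to the membrane. The protocadherins Cdhr2 and Cdhr5 reach between the tips of neighbouring microvilli and hold them in an ordered array, anchored from inside by the scaffold harmonin (Ush1c) and the motor myosin 7b (Myo7b). Enterocytes assemble this array as they leave the crypt and move up the villus, along which BMP signalling is known to be stronger towards the tip.

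The sequences just before the transcription start of 4 members are given as examples of the different patterns that follow. Vil1 and Ezr, like Cdhr2 and Myo7b, passed the test under Bmp2, Bmp4, Bmp5, Bmp7 and Tgfb. Myo1a and Ush1c passed under Bmp4 but not under Bmp5, Bmp7 or Tgfb. The 4 sequences were chosen with these patterns known. Each is the 100 bases before the start, 5′ to 3′ on the gene's own strand, from RefSeq on GRCm38.p6, at chr1:74409284-74409383 (plus strand) for Vil1, chr17:6782781-6782880 (minus) for Ezr, chr10:127705156-127705255 (plus) for Myo1a and chr7:46238491-46238590 (minus) for Ush1c. Capitals mark a CArG box, the motif known for serum response factor.
Vil1: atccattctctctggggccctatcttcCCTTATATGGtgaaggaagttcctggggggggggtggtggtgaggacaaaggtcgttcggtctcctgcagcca
Ezr: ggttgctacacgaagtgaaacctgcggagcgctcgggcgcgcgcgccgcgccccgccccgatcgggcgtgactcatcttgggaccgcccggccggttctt
Myo1a: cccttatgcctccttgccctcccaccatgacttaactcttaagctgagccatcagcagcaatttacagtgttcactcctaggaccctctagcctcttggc
Ush1c: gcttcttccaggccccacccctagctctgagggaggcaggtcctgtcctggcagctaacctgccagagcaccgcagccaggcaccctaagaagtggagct

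The 4 stretches differed in base composition, from 52% G and C for Myo1a to 72% for Ezr. The median over the same 100 bases was 55% for all 32851 promoters of the table and 61% for the 10 promoters of members. Windows of 300 bases, from 250 before to 50 after the start, were found for 8 of the 10 members, some with more than 1 start. Both strands were searched for letters known from regulators of the gut epithelium and of BMP signalling. The CArG box was found in 1 member, Vil1, and in 1.63% of all windows. The GC-rich SMAD letters GGCGCC were found in 1 member, Cdhr2, 13 bases after the start, and in 11.9% of all windows. The SMAD palindrome GTCTAGAC was found in no member and in 0.213% of all windows. The CDX letters TTTATNG and the KLF letters CACACCC were each found in 1 member, Espn, and in 10.9% and 7.95% of all windows. The HNF4 letters CAAAGTCCA (0.475% of all windows) and the GATA letters AGATAA (11.2%) were found in no member.

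Levels can be set side by side between genes only in TPM, a share of all transcripts that accounts for transcript length, so the order among members was read in the untreated samples of the Tgfb table. Vil1 was the most abundant at 217 ± 5.02 TPM (mean ± SD, n = 3 here and for the values that follow), then Pls1 at 176 ± 22.2 TPM. Cdhr5 (115 ± 9.24 TPM), Ezr (108 ± 9.42 TPM) and Myo1a (105 ± 12.1 TPM) came next, and neighbours in this trio overlapped in range. Eps8 followed at 78.0 ± 10.4 TPM and Cdhr2 at 56.8 ± 4.40 TPM. Myo7b (46.0 ± 2.34 TPM) and Ush1c (45.7 ± 2.76 TPM) overlapped each other. Espn was the least abundant at 12.8 ± 3.46 TPM. The 10 genes together held 0.0904% to 0.105% of all TPM in the controls.

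Bmp4 raised all 10 members, Bmp2 raised 9, Bmp5 and Bmp7 raised 4 each, and Bmp3 raised none. These counts are of genes with an adjusted p under 0.05 in limma's moderated test (Benjamini-Hochberg over 14746 genes), on log2 of the normalised count + 1. Every treated sample lay above every control for 8 members under Bmp2, 10 under Bmp4, 3 under Bmp5, 5 under Bmp7 and 0 under Bmp3, which held for 33.2%, 33.8%, 19.3%, 21.6% and 1.43% of all genes. Expression moved broadly under these ligands. Of all genes tested, 75.1% passed under Bmp2, 65.1% under Bmp4, 26.3% under Bmp5, 32.4% under Bmp7 and 0% under Bmp3, and the shares that passed as higher were 36.8%, 33.7%, 16.5%, 19.2% and 0%. The median log2 change of the 10 members was 1.23 under Bmp2 and 1.999 under Bmp4, against -0.03 and 0.04 for all genes. It was 0.16 under Bmp5, 0.24 under Bmp7 and -0.02 under Bmp3, against -0.03, -0.05 and 0.01 for all genes. The 5 BMP comparisons share their controls, and nothing in the labels says that replicates are separate cultures, so the p-values measure the spread between these samples. All 10 members differed among the 5 BMP ligands by limma's moderated F-test (adjusted p from 6.92e-11 to 1.23e-05), as did 84.1% of all genes.

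**Figure D1:**
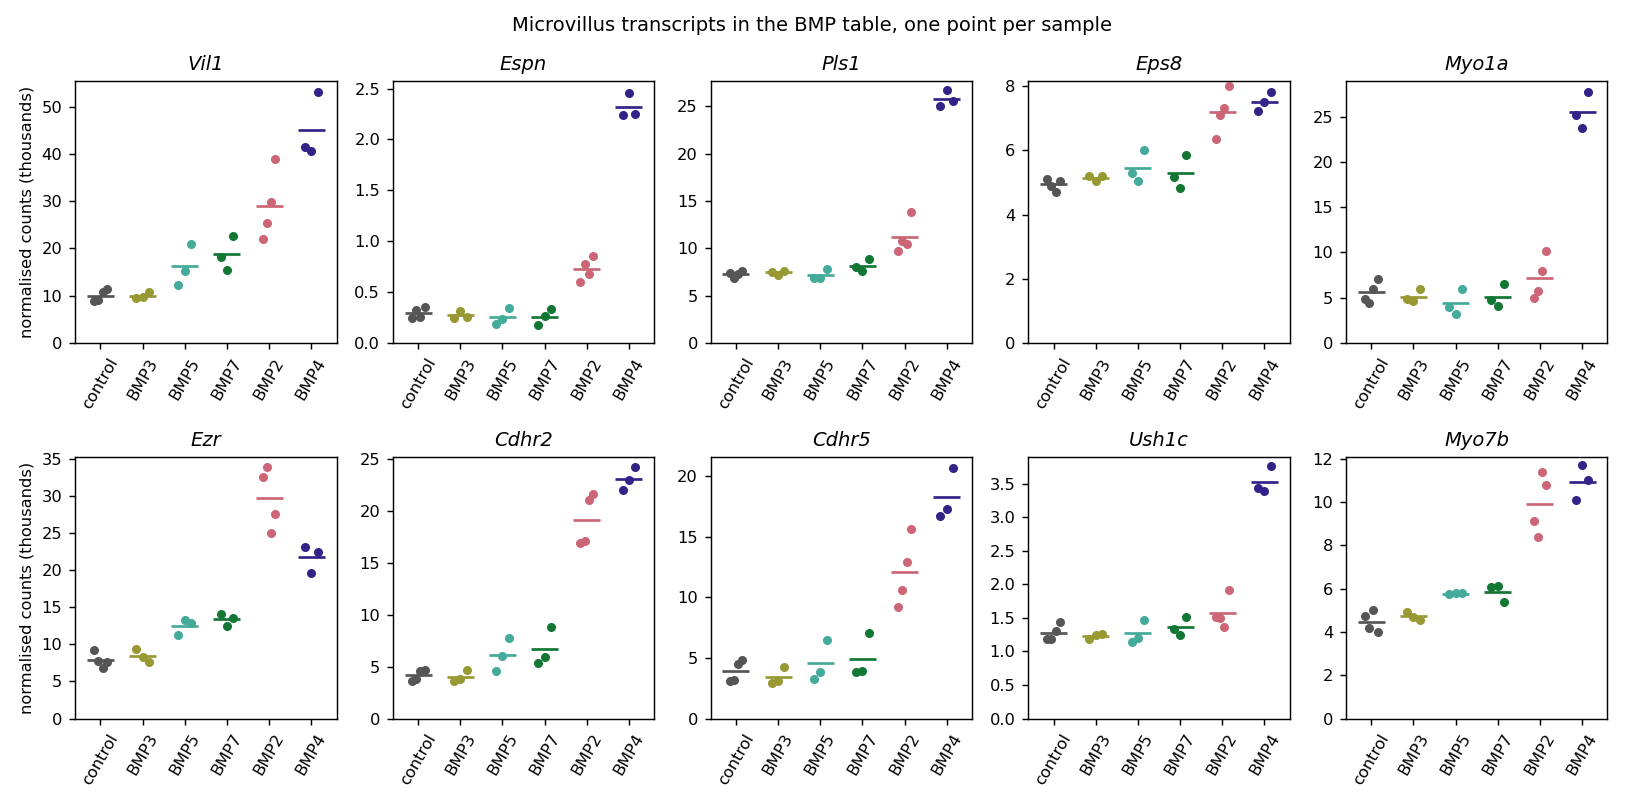
Normalised counts (y axis, from 0) of the 10 microvillus genes in the 6 groups of the BMP table; points are samples and lines are group means. Bmp4 samples lie above all controls for every gene, and Ezr is the gene whose highest samples are those given Bmp2.

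The members' share of all counts in a sample, which does not depend on how samples were scaled to each other, followed the same order. It was 0.250% ± 0.0165 in controls (SD, n = 4), 0.254% ± 0.0177 with Bmp3 (n = 3), 0.310% ± 0.0426 with Bmp5 (n = 3), 0.334% ± 0.0400 with Bmp7 (n = 3), 0.467% ± 0.0423 with Bmp2 (n = 4) and 0.700% ± 0.0322 with Bmp4 (n = 3). The ranges of Bmp2 (0.421% to 0.514%) and Bmp4 (0.675% to 0.736%) overlapped neither each other nor the controls (0.235% to 0.265%).

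Of the proteins of the actin core, Espn had the largest log2 change of all members under Bmp4. It stood at 247, 319, 253 and 350 normalised counts in the controls and at 2240, 2460 and 2250 with Bmp4. The 4 Bmp2 samples, at 594, 780, 681 and 849, lay between these groups without touching either. Espn rose by a log2 change of 3.00 ± 0.21 (SE, 7.98-fold; adjusted p = 1.1e-09 in limma) under Bmp4 and of 1.31 ± 0.19 (adjusted p = 5.76e-06) under Bmp2. Bmp5 samples (184, 232 and 338) and Bmp7 samples (177, 266 and 332) spread across and below the control range.

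Pls1, the main plastin of the brush border, had its highest levels with Bmp4. Its controls read 7380, 6870, 7270 and 7560 normalised counts, and its Bmp4 samples 25100, 26700 and 25600. With Bmp2 it read 9710, 10800, 10500 and 13800. The log2 change was 1.83 ± 0.10 under Bmp4 (adjusted p = 6.75e-11 in limma, the smallest among the members in that comparison) and 0.61 ± 0.09 under Bmp2 (adjusted p = 8.23e-06). The Bmp2 call was lost with every sample at the same total (log2 0.15, adjusted p = 0.0797 in limma) and with quantile normalization (-0.041, adjusted p = 0.669). With Bmp7 the 3 samples, 7990, 7630 and 8870, all lay just above the controls, but the change of 0.17 did not pass the test (adjusted p = 0.219 in limma).

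Vil1, which can both bundle and sever actin, passed the test under Bmp2, Bmp4, Bmp5 and Bmp7. Controls held 8880, 9080, 10700 and 11300 normalised counts, Bmp4 samples 41500, 40500 and 53200, and Bmp2 samples 21900, 25300, 29900 and 38900. Bmp7 samples (18200, 15500 and 22700) and Bmp5 samples (12300, 15300 and 20900) also stayed above every control, and overlapped each other. Bmp3 samples, at 9480, 9710 and 10700, were inside the control range. The log2 changes ran from 2.17 ± 0.19 under Bmp4 (4.50-fold) and 1.51 ± 0.18 under Bmp2 to 0.90 ± 0.19 under Bmp7 (adjusted p = 0.00146 in limma) and 0.67 ± 0.19 under Bmp5 (adjusted p = 0.0155 in limma). The Bmp5 call was lost without Bmp5 replicate 6 (log2 0.47, adjusted p = 0.127 in limma).

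Eps8 had the smallest Bmp4 response of the 10. It went from 4710 to 5120 normalised counts in controls to 7220 to 7830 with Bmp4 and 6370 to 8000 with Bmp2, with log2 changes of 0.61 ± 0.09 and 0.54 ± 0.08 (adjusted p = 6.72e-06 and 6.98e-06 in limma). The treated samples of both groups lay above all controls. The Bmp2 call was lost with every sample at the same total (log2 0.079, adjusted p = 0.284 in limma) and with quantile normalization (-0.024, adjusted p = 0.779). Quantile normalization also ended the Bmp4 call (log2 0.11, adjusted p = 0.202 in limma). Bmp5 (5040 to 6010) and Bmp7 (4830 to 5860) overlapped the controls.

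Of the membrane linkers, Myo1a was lower and Ezr higher with Bmp2 than with Bmp4, as tested further on. Myo1a, the single-headed motor that bridges core and membrane, read 4800, 4400, 5950 and 7100 normalised counts in controls and 25200, 23700 and 27700 with Bmp4. Its Bmp2 samples, 4970, 5720, 7930 and 10200, ran into the control range. Its log2 change was 2.22 ± 0.24 under Bmp4 (adjusted p = 2.38e-07 in limma) and 0.34 ± 0.22 under Bmp2, which did not pass the test (adjusted p = 0.176). It was the only member of the 10 that did not pass under Bmp2.

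Ezr, which links actin to membrane proteins once phosphorylated, had its highest values with Bmp2. Controls read 9180, 7760, 6790 and 7580 normalised counts, Bmp2 samples 32500, 33900, 25000 and 27500, and Bmp4 samples 23100, 19600 and 22400. Every Bmp2 sample was above every Bmp4 sample. The log2 change was 1.92 ± 0.11 under Bmp2 (3.79-fold; adjusted p = 2.73e-11 in limma) and 1.48 ± 0.12 under Bmp4 (adjusted p = 9.18e-09). Bmp5 (11200, 13300 and 12800) and Bmp7 (14100, 12400 and 13600) raised it too, by 0.67 ± 0.12 and 0.78 ± 0.12 on the log2 scale (adjusted p = 0.000495 and 8.98e-05 in limma), with no overlap with the controls.

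The ratio of Ezr to Myo1a counts within a sample puts the same contrast on a scale free of the scaling between samples. The pair was chosen after its values were seen and has no test. The ratio was 1.47 ± 0.429 in controls (SD, n = 4), 4.58 ± 1.94 with Bmp2 (n = 4) and 0.851 ± 0.0578 with Bmp4 (n = 3). The Bmp2 samples ranged from 2.70 to 6.54, all above the controls (1.07 to 1.91), and the Bmp4 samples from 0.809 to 0.917, all below them. Bmp5 samples (2.14 to 4.21) and Bmp7 samples (2.09 to 3.08) also lay above the controls.

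In the tip-link complex, both protocadherins and the motor rose under Bmp2 and Bmp4, and the scaffold rose chiefly under Bmp4. Cdhr2 read 3600, 3830, 4600 and 4700 normalised counts in controls, 16900, 17100, 21100 and 21600 with Bmp2 and 22000, 23000 and 24200 with Bmp4. This protocadherin was 4.58-fold (log2 2.20 ± 0.16) and 5.55-fold (log2 2.47 ± 0.18) over controls under Bmp2 and Bmp4. Its partner Cdhr5 went from 3120 to 4850 in controls to 9200 to 15600 with Bmp2 (log2 1.63 ± 0.24) and 16700 to 20700 with Bmp4 (log2 2.25 ± 0.25). Adjusted p-values of both genes in limma were at most 4.46e-06 in these comparisons.

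Myo7b, the motor that carries the complex to the tip, went from 4000 to 5010 normalised counts in controls to 8360 to 11400 with Bmp2 (log2 1.14 ± 0.10) and 10100 to 11700 with Bmp4 (log2 1.29 ± 0.11). The 2 treated groups overlapped each other and not the controls. The Myo7b changes were 0.68 and 0.89 with every sample at the same total and 0.56 and 0.71 with quantile normalization, all still past the test. Ush1c is the scaffold that joins protocadherins to the motor. It read 1180, 1180, 1300 and 1440 in controls, 1520, 1500, 1370 and 1920 with Bmp2 and 3430, 3390 and 3770 with Bmp4. Its log2 change was 1.47 ± 0.11 under Bmp4 (adjusted p = 3.68e-09 in limma) but 0.30 ± 0.11 under Bmp2 (adjusted p = 0.0154), where 1 sample lay inside the control range. Without Bmp2 replicate 6 the Bmp2 call on Ush1c was lost (log2 0.20, adjusted p = 0.0734 in limma). It was lost too at the same total (log2 -0.16, adjusted p = 0.111 in limma) and with quantile normalization (0.041, adjusted p = 0.713).

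Of the complex, Cdhr2 and Myo7b passed as higher under Bmp5 and Bmp7, each with calls that 1 or more alternatives ended. Under Bmp7, Cdhr2 read 5390, 5890 and 8800 (log2 0.65 ± 0.18, adjusted p = 0.00828 in limma) and Myo7b 6080, 6110 and 5360 (log2 0.39 ± 0.11, adjusted p = 0.00831). All these samples were above the controls. The Bmp7 call was lost for Cdhr2 without BMP7 replicate 6 (log2 0.44, adjusted p = 0.0765 in limma) and for Myo7b with quantile normalization (log2 0.24, adjusted p = 0.0868). Under Bmp5, Cdhr2 read 4620, 6040 and 7750 (log2 0.53 ± 0.18, adjusted p = 0.0330 in limma), with 1 sample inside the control range, and Myo7b 5730, 5800 and 5780 (log2 0.37 ± 0.11, adjusted p = 0.0134). The Myo7b call under Bmp5 was lost without replicate 6 in every group (log2 0.32, adjusted p = 0.108 in limma). The Cdhr2 call under Bmp5 was lost there too (adjusted p = 0.0958), and also without filter, with quantile normalization, with only these groups in the fit, and without control replicate 2 or 3 or BMP5 replicate 3 or 6, at adjusted p-values from 0.0519 to 0.224 in limma.

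**Figure D2:**
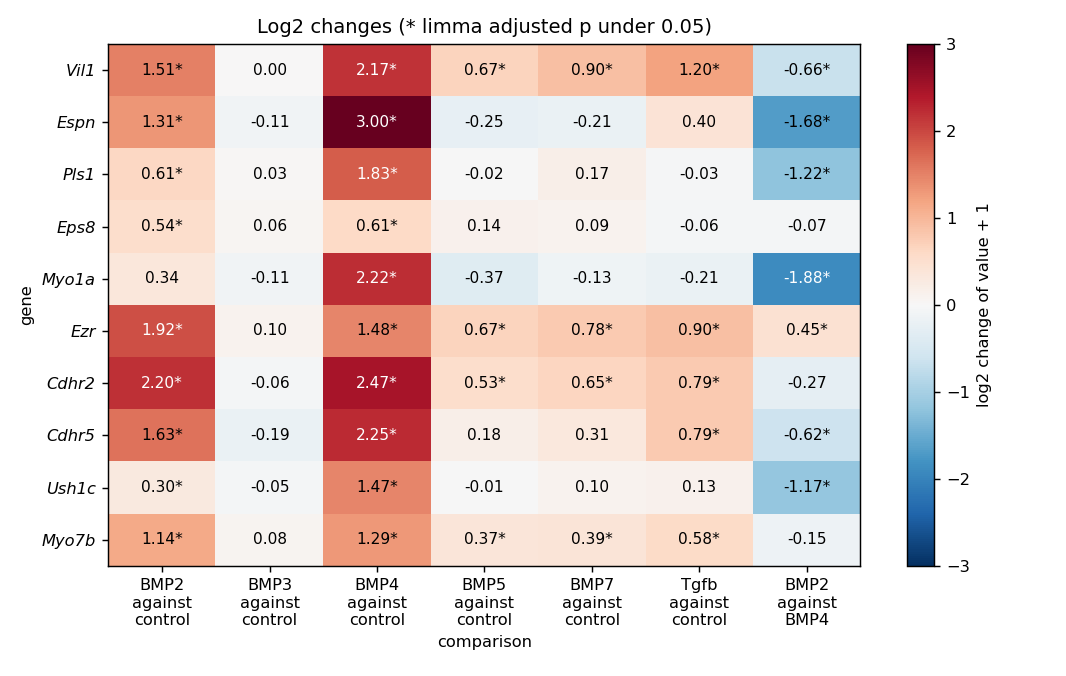
Log2 changes of normalised count + 1 or TPM + 1 for the 10 genes (rows) in 7 comparisons (columns), coloured from -3 to 3; a star marks an adjusted p under 0.05 in limma. The Bmp4 column is starred for all 10 genes, the Bmp3 column for none, and in the last column Ezr is the 1 gene higher with Bmp2 than with Bmp4.

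No member passed the test under Bmp3. Their log2 changes ran from -0.19 to 0.10. None had an unadjusted p under 0.05 in limma, none was called by edgeR or DESeq2 on recovered reads, and all 10 overlapped the controls. Of all genes, 0 passed with limma and 110 had an unadjusted p under 0.05. Between Bmp5 and Bmp7 no member passed the test either. Log2 differences of Bmp5 against Bmp7 ran from -0.24 to 0.05, 0 of 10 members passed or had an unadjusted p under 0.05, and 0.0136% of all genes passed. All 10 members overlapped between these ligands, where 6.54% of all genes did not. edgeR and DESeq2 on recovered reads also called 0 of the 10. Same-numbered Bmp5 and Bmp7 samples deviated together. Within the 3 pairs of the same number Vil1, Pls1, Cdhr5, Myo1a and Ush1c were lower with Bmp5 in 3 of 3. Eps8 was higher in 3 of 3. The share of all genes keeping 1 direction over the 3 pairs was not counted, so this does not set the members apart. With the replicate number as a block, Vil1 (log2 -0.23) and Pls1 (log2 -0.18) had an unadjusted p under 0.05 in limma. So did 861 of all 14746 genes tested. After adjustment 0 members passed (lowest adjusted p = 0.823 in limma), beside 0.0407% of all genes.

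The Bmp5 and Bmp7 samples share their replicate numbers with 3 of the 4 controls, and samples of the same number deviated together. Replicate 6 had the highest value of its group in 37 of 50 combinations of member and group. This held in 5 of 5 groups for Vil1, Cdhr2, Cdhr5, Myo1a and Ush1c and in 0 of 5 for Ezr and Myo7b. How often it held over all genes was not counted, and many members vary together, so the combinations are not separate observations. With the replicate number as a block, Cdhr5 also passed under Bmp7 (log2 0.37, adjusted p = 0.00557 in limma) and Myo1a passed as lower under Bmp5 (log2 -0.32, adjusted p = 0.0400), so that 5 members passed for each ligand, beside 38.9% of all genes under Bmp5 and 45.4% under Bmp7 in the same fit. Without replicate 6 in every group, an alternative added after the data were seen, 2 members passed under Bmp5 and 4 under Bmp7. That fit had fewer samples, and its share of all genes passing is not given here. The counts therefore cannot be read as a trait of the members.

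The direct comparison of Bmp2 with Bmp4 divided the members by ligand. With Bmp2, 6 of the 10 were lower than with Bmp4 and 1, Ezr, was higher, beside 33.4% of all genes tested in each direction (66.8% in all). The groups did not overlap for 8 members, beside 60.6% of all genes. The members' median log2 difference was -0.64, against 0.01 for all genes. Myo1a differed most, by -1.88 ± 0.24 on the log2 scale (adjusted p = 1.58e-06 in limma), followed by Espn (-1.68 ± 0.21), Pls1 (-1.22 ± 0.10) and Ush1c (-1.17 ± 0.11). Vil1 was lower by a smaller margin (-0.66 ± 0.19, adjusted p = 0.00578 in limma), and Ezr was higher by 0.45 ± 0.12 (adjusted p = 0.00372). The Cdhr5 difference (-0.62 ± 0.25, adjusted p = 0.0396 in limma) was lost without filter, without intensity trend, with edgeR, and without BMP2 replicate 2 or 3 or any 1 of the 3 BMP4 replicates (adjusted p from 0.0528 to 0.128). Cdhr2 (-0.27 ± 0.18, adjusted p = 0.180), Myo7b (-0.15 ± 0.11, adjusted p = 0.221) and Eps8 (-0.07 ± 0.09, adjusted p = 0.512) did not pass in limma, which does not show that they were equal.

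**Figure D3:**
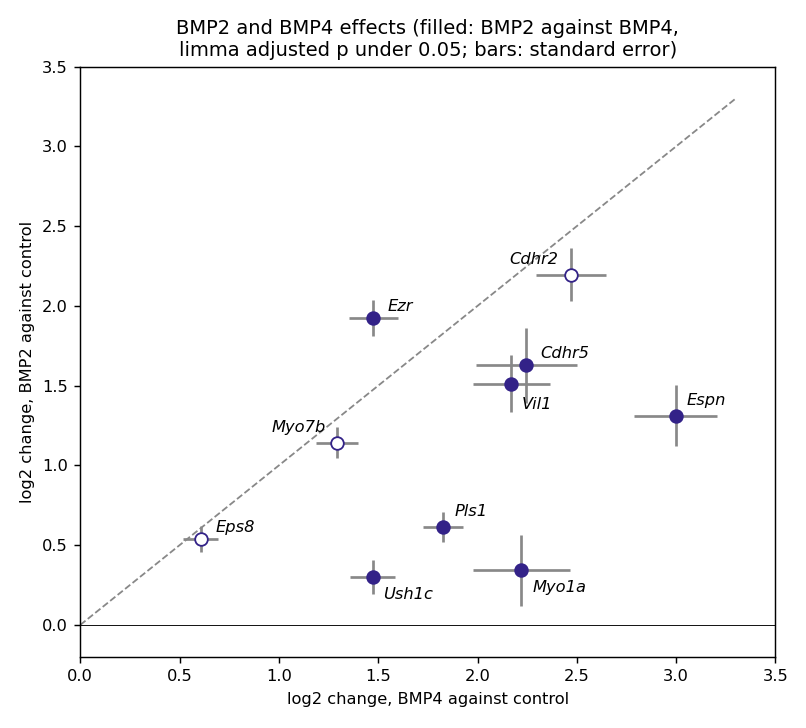
Log2 change under Bmp4 (x axis) and under Bmp2 (y axis) for each gene, with standard errors from limma; both share the control samples. Filled points passed the direct test of Bmp2 against Bmp4; the dashed line marks equal change. Ezr is the 1 gene above the line, and Myo1a, Espn, Pls1 and Ush1c lie farthest below it.

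Bmp7 sat below both. Against Bmp7, Bmp4 was higher for all 10 members (log2 0.51 to 3.21), beside 28.4% of all genes passing as higher (59.8% in all), and no member's groups overlapped, which held for 30.8% of all genes in that direction. With quantile normalization the calls on Ezr (log2 0.17, adjusted p = 0.185 in limma) and Eps8 (log2 0.19, adjusted p = 0.0553) were lost. Bmp2 was higher than Bmp7 for 8 members, beside 31.4% of all genes (62.8% in all), and 7 of them did not overlap, beside 29.1% of all genes. Myo1a (log2 0.47, adjusted p = 0.0999 in limma) and Ush1c (log2 0.20, adjusted p = 0.129) did not pass. The Vil1 difference between Bmp2 and Bmp7 (log2 0.61, adjusted p = 0.0105 in limma) was lost without BMP7 replicate 3 (adjusted p = 0.0671). Of the 8 calls 5 (Cdhr2, Espn, Cdhr5, Ezr and Myo7b) held under each of the 3 scalings compared next. Those on Vil1 (log2 0.22 and -0.036), Pls1 (0.057 and -0.075) and Eps8 (0.056 and 0.052) were lost at the same total and with quantile normalization (adjusted p from 0.290 to 0.879), beside 17.0% and 33.4% of all genes passing as higher.

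How the samples were scaled bears on the smaller Bmp2 changes. The deposited scaling gave Bmp2 and Bmp4 samples larger sums of normalised counts, 1.38 and 1.32 times the control mean, than Bmp3 (0.985 times), Bmp5 (1.03 times) or Bmp7 (1.05 times). Bringing all samples to the same total moved the median of all genes by -0.46 under Bmp2 and -0.40 under Bmp4. All 10 members still passed as higher under Bmp4 at the same total, and 9 with quantile normalization, which took the call from Eps8 (log2 0.11, adjusted p = 0.202 in limma), beside 20.9% and 32.5% of all genes passing as higher. Under Bmp2, 6 members (Cdhr2, Ezr, Cdhr5, Vil1, Espn and Myo7b) were higher under each of the 3 scalings, while Pls1, Eps8 and Ush1c kept no call at the same total or with quantile normalization. Of all genes, 24.4% passed as higher under Bmp2 at the same total and 36.6% with quantile normalization. At the same total Myo1a (-0.12) and Ush1c (-0.16) turned to lower values under Bmp2, and with quantile normalization Myo1a (-0.23), Pls1 (-0.041) and Eps8 (-0.024) did, none of them past the test. The difference of Bmp2 from Bmp4 held 7 calls under all 3 scalings, beside 66.8%, 66.7% and 65.6% of all genes.

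**Figure D4:**
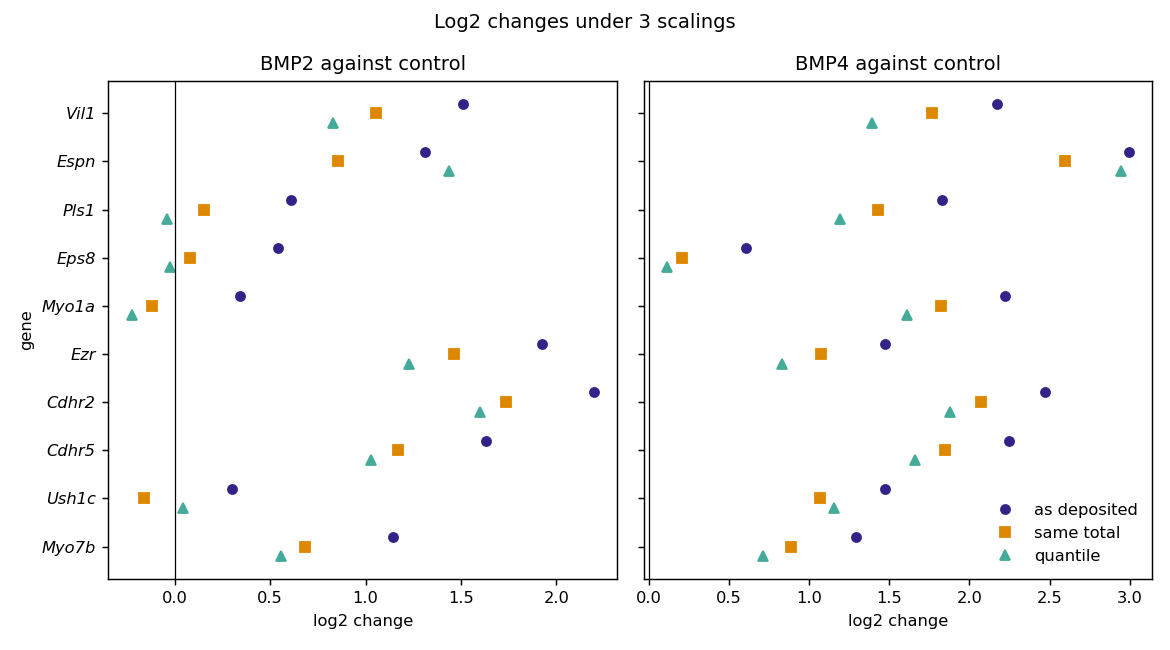
Log2 change (x axis) of each gene under Bmp2 (left) and Bmp4 (right) with the values as deposited, with every sample brought to the same total, and with quantile normalization. Under Bmp4 all values stay above 0; under Bmp2 Myo1a, Ush1c, Pls1 and Eps8 fall to or below 0 under at least 1 other scaling.

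Tgfb raised 5 of the 10 members: Vil1, Ezr, Cdhr5, Cdhr2 and Myo7b. Of the 7880 genes tested there, 31.4% passed as higher and 64.3% in all (limma on log2 of TPM + 1). The members' median log2 change was 0.49, against -0.01 for all genes. Vil1 went from 216, 213 and 223 TPM to 477, 459 and 571 TPM, a log2 change of 1.20 ± 0.10 (adjusted p = 5.55e-05 in limma). Ezr went from 97.9, 111 and 116 TPM to 192, 204 and 211 TPM (0.90 ± 0.09, adjusted p = 0.000126). None of the treated samples of either gene reached down to the controls.

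The tip-link protocadherins and their motor rose with them. Cdhr5 went from 110, 109 and 126 TPM to 178, 184 and 239 TPM (log2 0.79 ± 0.13, adjusted p = 0.00147 in limma). Cdhr2 went from 54.0, 54.5 and 61.9 TPM to 92.0, 94.1 and 110 TPM (log2 0.79 ± 0.10, adjusted p = 0.000383). Myo7b went from 43.6, 46.4 and 48.2 TPM to 66.4, 67.7 and 74.6 TPM (log2 0.58 ± 0.08, adjusted p = 0.000506). In all 3 genes the treated and untreated samples did not overlap, which held for 34.4% of all genes in the higher direction.

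The other 5 members overlapped between the groups. Espn read 10.9, 10.8 and 16.8 TPM in controls and 14.6, 16.7 and 20.1 TPM with Tgfb (log2 0.40 ± 0.19, adjusted p = 0.103 in limma), and it passed without control replicate 3 (log2 0.60, adjusted p = 0.0136). Myo1a read 100.1, 97.0 and 119 TPM in controls and 78.1, 81.7 and 117 TPM with Tgfb (log2 -0.21 ± 0.17, adjusted p = 0.305), and it passed as lower without Tgfb replicate 3 (log2 -0.39, adjusted p = 0.0250). Pls1 (-0.03 ± 0.11), Eps8 (-0.06 ± 0.11) and Ush1c (0.13 ± 0.08) had log2 changes within 2 standard errors of 0. Tgfb brought the order of abundance to Vil1 (502 ± 60.3 TPM), Ezr (202 ± 9.74 TPM), Cdhr5 (201 ± 33.7 TPM) and Pls1 (172 ± 14.7 TPM), the last 3 overlapping in range from one to the next. The share of all TPM held by the 10 genes was 0.137% to 0.166% with Tgfb, above every control.

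**Figure D5:**
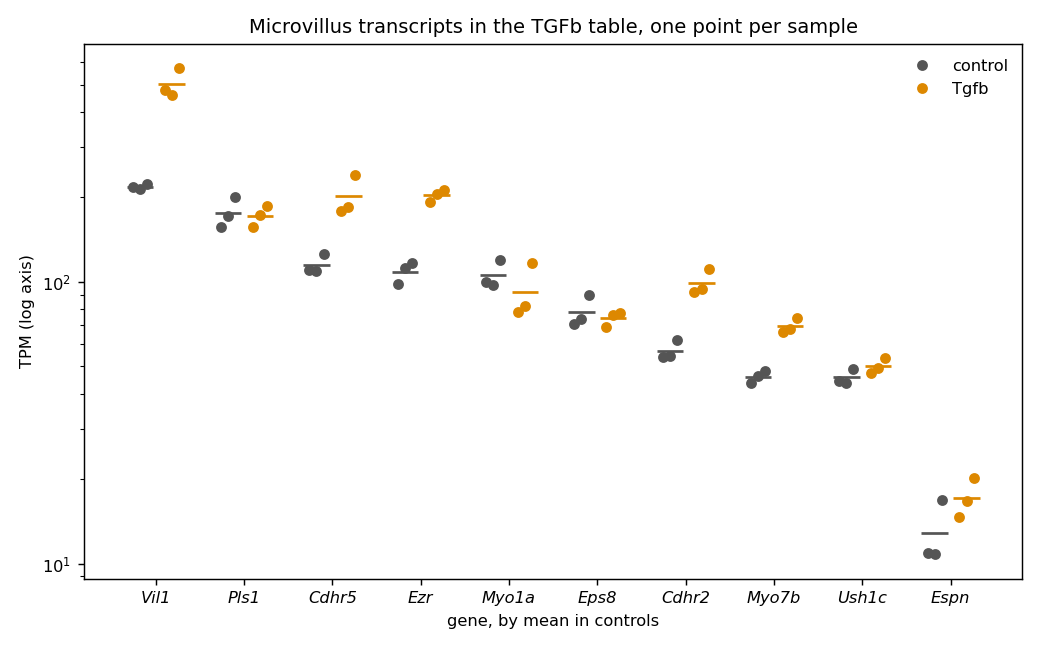
TPM on a log axis of the 10 genes in untreated (grey) and Tgfb-treated (orange) organoids; points are samples and lines are means, with genes ordered by their control mean. Vil1, Cdhr5, Ezr, Cdhr2 and Myo7b separate between the groups and the other 5 genes overlap.

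The Tgfb and BMP tables were scaled separately and have separate controls, so no test was run between them. Set side by side, the log2 changes of Vil1, Ezr, Cdhr2 and Myo7b were 1.20, 0.90, 0.79 and 0.58 under Tgfb, 0.90, 0.78, 0.65 and 0.39 under Bmp7 and 0.67, 0.67, 0.53 and 0.37 under Bmp5.

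In the mesenchymal samples, 1 of each kind and so without replicate check, 4 members (Vil1, Cdhr2, Cdhr5 and Ush1c) were listed at 0 in both. Ezr (55.3 TPM fresh, 10.6 TPM immortalised) and Eps8 (17.3 and 21.0 TPM) were the 2 members above 1 TPM in either sample. Both are known from the cortex and protrusions of many cell types.

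Other genes of the brush border were counted from lists of 70 genes, of which 67 were tested in the BMP table and 51 in the Tgfb table. Those passing as higher and lower were 46 and 12 under Bmp2, 46 and 8 under Bmp4, 32 and 4 under Bmp5, 40 and 7 under Bmp7, 0 and 0 under Bmp3, and 33 and 8 under Tgfb. Their median log2 changes were 1.15, 0.96, 0.46, 0.50, 0.01 and 0.74, in the same order. Of all genes tested, 36.8%, 33.7%, 16.5%, 19.2%, 0% and 31.4% passed as higher, again in that order. The shares of all genes passing as lower were 38.4%, 31.4%, 9.87%, 13.2%, 0% and 32.9%. In the direct comparison of Bmp2 with Bmp4, 34 list genes were higher and 25 lower with Bmp2, at a median of 0.33, beside 33.4% of all genes in each direction. With every sample at the same total, 40 list genes rose and 15 fell under Bmp2 and 40 rose and 12 fell under Bmp4, and with quantile normalization 44 and 11, and 37 and 12. Of all genes, 24.4% passed as higher and 53.0% as lower under Bmp2 at the same total, and 20.9% and 46.7% under Bmp4. With quantile normalization these shares were 36.6% and 37.6%, and 32.5% and 33.4%. The shares of all genes given here apply to the lists that follow too.

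The terminal web, the mesh of myosin, spectrin and keratin in which the rootlets stand, was higher with Bmp2: of 14 genes tested, 10 were higher and 2 lower with Bmp2 than with Bmp4 (median log2 1.31). Against controls 12 rose and 0 fell under Bmp2, and 10 and 0 under Bmp4, where the same total gave 8 and 2 and quantile normalization 5 and 2. Tpm4, a tropomyosin that wraps actin filaments, was at 4733 ± 881 normalised counts in controls (SD, n = 4), 25375 ± 3621 with Bmp2 (n = 4) and 5063 ± 111 with Bmp4 (n = 3); its log2 change under Bmp4 was 0.12 (adjusted p = 0.491 in limma) and turned to a called -0.28 (adjusted p = 0.0496) at the same total. Under Tgfb 11 of the 12 genes tested in this list rose and 0 fell.

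Among relatives of Pls1 and Myo1a in the core and linker lists, Pls3, Myo1c and Myo1e were higher with Bmp2 than with Bmp4. Pls3, the plastin of many non-intestinal cells, read 1088 ± 53.2 normalised counts in controls (SD, n = 4), 10648 ± 1601 with Bmp2 (n = 4) and 590 ± 212 with Bmp4 (n = 3), and so fell by 0.94 on the log2 scale where Pls1 rose (adjusted p = 0.000415 in limma). The log2 difference of Bmp2 from Bmp4 was 4.22 for Pls3 and -1.22 for Pls1. The third plastin, Lcp1, known from blood cells and named here after its values were seen, was lower with Bmp2 as Pls1 was, at 156 to 279 normalised counts against 304 to 692 with Bmp4. The class I myosins Myo1c and Myo1e were higher with Bmp2 than with Bmp4 by 2.14 and 1.59 on the log2 scale, where Myo1a was lower. Under Tgfb, Pls3 rose by 2.98, Myo1c by 2.24 and Myo1e by 1.73 on the log2 scale (adjusted p at most 7.47e-06 in limma).

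Baiap2l2, a membrane-shaping protein counted in the core and tip list, went the other way. It was at 1368 ± 130 normalised counts in controls (SD, n = 4), 120 ± 35.0 with Bmp2 (n = 4) and 1767 ± 142 with Bmp4 (n = 3). Its log2 change was -3.54 under Bmp2 and -2.06 under Tgfb (adjusted p = 9.51e-13 and 2.11e-06 in limma), while its change under Bmp4 (0.37, adjusted p = 0.0648; -0.029 at the same total) did not pass. Baiap2l1, a relative in the same list named here after its values were seen, stood higher with Bmp2 and Bmp4 than in controls. It was at 1640 ± 143 normalised counts in controls (SD, n = 4), 6368 ± 1260 with Bmp2 (n = 4) and 3333 ± 812 with Bmp4 (n = 3). In the core and tip list as a whole, 10 genes rose and 4 fell of 14 under Bmp2, and 8 rose and 3 fell under Bmp4. In the linker list 9 rose and 3 fell of 14 under Bmp2, and 8 and 3 under Bmp4.

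Apical trafficking genes, including those whose loss causes microvillus inclusion disease, rose under both ligands, 10 of 11 under Bmp2 and 10 of 11 under Bmp4, with 0 and 1 falling (7 and 9 rising, 2 and 1 falling at the same total). Unc45a, a myosin chaperone, went from 597 ± 21.8 normalised counts in controls (SD, n = 4) to 3288 ± 294 with Bmp2 (n = 4) and 941 ± 95.4 with Bmp4 (n = 3). Rab11fip1, an effector of recycling endosomes, went from 3203 ± 378 to 17450 ± 1261 and 6833 ± 451.

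The proteins that sit on the microvillar membrane divided most sharply. Of 14 tested, 10 rose and 1 fell under Bmp4 (median log2 1.64), while 5 rose and 5 fell under Bmp2 (median 0.37, or -0.09 at the same total, where 3 rose and 6 fell), and 12 were lower with Bmp2 than with Bmp4. Slc5a1, the sodium-glucose cotransporter, was at 8900 ± 1867 normalised counts in controls (SD, n = 4), 543 ± 232 with Bmp2 (n = 4) and 37933 ± 8779 with Bmp4 (n = 3). Anpep, aminopeptidase N of the brush border, was at 5780 ± 1080, 290 ± 90.0 and 9220 ± 2154, and its rise under Bmp4 did not pass (log2 0.67, adjusted p = 0.0597 in limma). Under Tgfb both fell, with log2 changes of -2.85 and -2.34 (adjusted p = 3.5e-06 and 7.7e-06 in limma).

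Cell type markers changed too, and not always in the direction of the members. The summed level of 10 enterocyte genes ranged from 80835 to 149159 normalised counts in controls, 464810 to 575050 with Bmp4, 37430 to 93427 with Bmp2, 49781 to 93706 with Bmp5 and 41900 to 91875 with Bmp7. None of the 10 was at 0 in these groups. Of these genes 9 rose and 0 fell under Bmp4, and 1 rose and 6 fell under Bmp2. Under Bmp5 0 rose and 5 fell, and under Bmp7 0 rose and 6 fell. Under Tgfb 3 rose and 6 fell of 9 tested. Crypt stem cell genes fell in 6 of 6 cases under Bmp2, Bmp4 and Tgfb alike. The summed tuft cell genes, a cell type with its own tall microvilli that contain villin, ranged from 430 to 519 normalised counts in controls, 1629 to 2429 with Bmp2 and 902 to 952 with Bmp4. Much of the sum with Bmp2 was Avil, named here after its values were seen and also counted in the core and tip list. Avil ranged from 97.1 to 156, 1010 to 1840 and 318 to 497 in the same groups. Of 6 tuft genes tested, 4 rose and 0 fell under Bmp2, and 3 rose and 1 fell under Bmp4 (2 and 1 at the same total). All 5 general epithelial genes (Epcam, Cdh1, Krt8, Krt18 and Cldn7) rose under Bmp2, Bmp4, Bmp5, Bmp7 and Tgfb, though under Bmp4 the same total left 3 of them called and quantile normalization had 2 higher and 1 lower. Of 6 goblet cell genes 5 rose under Bmp4 and 3 rose and 2 fell under Bmp2 (2 and 3 under both other scalings), and of 5 enteroendocrine genes 3 and 4 rose. All 5 Paneth cell genes fell under Bmp2 and 0 passed under Bmp4, where the same total and quantile normalization each had all 5 falling. Of all genes, 38.4% passed as lower under Bmp2, 31.4% under Bmp4, 9.87% under Bmp5, 13.2% under Bmp7 and 32.9% under Tgfb. At the same total 53.0% did so under Bmp2 and 46.7% under Bmp4. In bulk samples, more cells of a type and more RNA per cell cannot be told apart, and the part of these markers in the members' changes was not tested. Mesenchymal genes summed to 4.13 to 118 normalised counts, with Dcn and Lum not listed, and to at most 1.07 TPM in the Tgfb table. Immune genes summed to 42.4 to 240 and endothelial genes to 558 to 1031 normalised counts, and Eng, Cdh5 and Kdr, 3 of the 4 endothelial genes, were at 0 in at least 1 group.

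Likeness of pattern over the 20 samples of the BMP table was measured by Pearson's r of log2 values, as a description, since the samples share groups and scaling. Among the members, Ush1c and Pls1 (r = 0.979) and Cdhr2 and Cdhr5 (r = 0.977) were most alike, and Myo1a and Ezr (r = 0.453) and Ush1c and Ezr (r = 0.542) least. Among the non-members of the 11856 genes at a mean of at least 50, the 2 nearest to Vil1 were Lipa (0.992) and Myo15b (0.991). The 2 nearest to Espn were Tmem106a (0.989) and Gucd1 (0.987), and to Pls1 Chuk (0.991) and Crot (0.990). For Myo1a Sec24d (0.988) was among them, and they were for Ush1c Trpm4 (0.992) and the brush border phosphatase gene Alpi (0.988), and for Ezr Tnip1 (0.994) and the actin-nucleator gene Actr3 (0.990). For Cdhr2 they were Gpd2 (0.994) and Gpr107 (0.992), for Cdhr5 Sgk2 (0.987) and Fam160b1 (0.987), for Myo7b the terminal web myosin gene Myh14 (0.975) and Selenoi (0.974), and for Eps8 Itm2b (0.976) and Gipc2 (0.974).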

How the data were processed

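RNA-seq values were used from 26 organoid samples and, for description, 2 mesenchymal ones. The BMP values deposited are a signal: by their steps, read counts scaled by a single factor in each sample and kept to 3 digits. The Tgfb and mesenchymal values deposited are TPM, since every column sums to 1000000, so their depth is unknown. Trim Galore, Salmon, DESeq2 and GRCm39 are named in the submitters' processing notes, without versions of the tools. In the BMP table whole reads were recovered (100% of 180721 values at or below 20 reads whole within 0.1 reads), giving 21356367 to 24788468 reads per sample. All 28 columns were mapped by label. Which samples shared a sequencing run is not given in the sources used here.

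Tests used limma 3.58.1 in R 4.3.3 with an intensity trend on log2(value + 1), for genes at a mean of at least 10 (14746 of 29413 and 7880 of 55416). The 6 BMP groups entered 1 fit, and tests were two-sided. Tests stayed within a table because the tables were scaled separately. edgeR 4.0.16 and DESeq2 1.42.0 on recovered reads were alternatives. The fits were tested on simulated data.

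Members and lists were chosen with earlier results of these data known. Other genes named are, per brush border list, the 2 with the smallest p in Bmp2 against Bmp4 and the 1 with the smallest p under Tgfb (mean of at least 50), and the 2 nearest each member by Pearson's r; some genes so chosen are not reported here. Same-numbered samples deviated together in every pair against controls for Bmp3 (correlations of 0.281 to 0.553), Bmp4 (0.190 to 0.225), Bmp5 (0.158 to 0.262) and Bmp7 (0.236 to 0.294), and for Bmp5 (0.150 to 0.489) and Bmp4 (0.206 to 0.293) against Bmp7. The labels do not say what the numbers stand for. Promoter sequences and coordinates are RefSeq's on GRCm38.p6. Lists of marker genes for epithelium, enterocytes, crypt stem, Paneth, goblet, enteroendocrine, tuft, mesenchymal, immune and endothelial cells were summed per sample.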

Additional observations from a re-analysis of the deposited data

How the results depend on the processing

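Of 211 recomputed counts of called members, 207 stayed within 1.5 times the reported count. These include 19 counts for Bmp3 and 18 for Bmp5 against Bmp7, all at 0. Under Bmp2 the count ran from 6 to 10 against 9 reported, which is within that limit. Under Bmp5 the count fell from 4 to 2 without BMP5 replicate 6 and, in an alternative added later, to 2 without replicate 6 in every group. For Bmp2 against Bmp7 it fell from 8 to 5 at the same total and to 5 with quantile normalization. Leaving out 1 replicate at a time gave 2 to 4 called members under Bmp5, 3 to 4 under Bmp7 and 8 to 9 under Bmp2. It gave 6 to 7 for Bmp2 against Bmp4 and 5 to 6 under Tgfb. Shares of all genes passing with samples left out are not given here, so these counts do not set the members apart from all genes. Log2 changes that turned in sign were small once turned, but some had passed the test as deposited. Those were Pls1 (0.61), Eps8 (0.54) and Ush1c (0.30) under Bmp2, and Vil1 (0.61) and Pls1 (0.45) for Bmp2 against Bmp7. With quantile normalization the changes that turned were Eps8 (-0.024), Myo1a (-0.23) and Pls1 (-0.041) under Bmp2, Eps8 (-0.075) under Bmp7, and Vil1 (-0.036) and Pls1 (-0.075) for Bmp2 against Bmp7. At the same total they were Myo1a (-0.12) and Ush1c (-0.16) under Bmp2 and Ush1c (-0.19) for Bmp2 against Bmp7. With 1 replicate left out, signs turned under Bmp5 for the members' median (-0.0057 to 0.27), Cdhr5 (-0.11 to 0.39), Ush1c (-0.12 to 0.064) and Pls1 (-0.079 to 0.014). They also turned under Bmp7 for Espn (-0.41 to 0.040) and Myo1a (-0.32 to 0.028), and under Tgfb for Eps8 (-0.13 to 0.046) and Pls1 (-0.11 to 0.066). The same total also moved the share of all calls that were higher from 48.9% to 31.5% under Bmp2, from 51.7% to 30.9% under Bmp4 and from 59.4% to 48.5% under Bmp7. Quantile normalization moved it under Bmp5 from 62.5% to 49.8% and under Bmp7 to 48.0%. The causes were not tested. Same-numbered samples did not deviate together in every pair for Bmp2 against control, Bmp4 or Bmp7 (lowest correlations 0.018, -0.040 and -0.11) or for Tgfb (-0.019). There the replicate block gave 10, 8, 10 and 6 called members, beside 80.4%, 72.6%, 69.8% and 68.7% of all genes. With the replicate block the counts stayed at 10 for Bmp4 and 0 for Bmp3, beside 71.8% and 0% of all genes. They went from 4 to 5 for Bmp5, where Myo1a passed as lower, and from 4 to 5 for Bmp7, beside 38.9% and 45.4% of all genes. TPM keeps no depth, and BMP values over 999 reads are known to 3 digits.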
